A study of Homo sapiens with 47 samples.

Results

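Mediator is the large coactivator that links transcription factors bound to DNA with RNA polymerase II, and its subunits were taken here as 33 genes listed by symbol. They were 33 of the 58395 genes in the count table, and all 33 were among the 28025 genes kept by the low-count filter. The rule picks genes by symbol and uses no measured value, although the members were chosen with earlier results of these data known. Wild-type HEK293T cells, a human embryonic kidney line, were compared with EAF1-mutant cells derived from them, with 3 RNA-seq libraries of ribosomal RNA-depleted total RNA for each. In the mutant line both alleles of EAF1 carried alanines in place of the residues that bind MED26. The mutant cells came from a single CRISPR clone, so that effects of the mutation and of the clone cannot be told apart. Counts assigned to genes came to 59137210, 52541541 and 55637032 for wild-type replicates 1 to 3, and 57198018, 53369621 and 66611451 for the EAF1-mutant replicates. The study's methods speak in general of biological replicates for its experiments, but the labels do not tie the 3 libraries of a group to separate cultures. The p-values measure the spread between these samples, all mutant ones being from the same clone.

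Mediator is built of a head and a middle module, which contact RNA polymerase II, and a tail module, which receives many transcriptional activators. MED14 runs through the core as its backbone, and a kinase module with CDK8 or CDK19, cyclin C, MED12 and MED13 or their paralogs binds it reversibly. MED26 sits in the middle module and recruits elongation complexes that hold EAF1, the little elongation complex (LEC) and the super elongation complex (SEC), through its N-terminal domain. The comparison asked how much RNA each subunit gene gave in wild-type cells and whether that amount differed in cells whose EAF1 cannot make its normal contact with MED26. The genes were grouped as 7 head, 9 middle, 5 tail and 7 kinase subunits, with MED14 alone and MED27 to MED30, which have been placed in the head or the tail, as a group of 4.

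Marker genes were read as a check of the cell type. Of 6 markers listed for HEK293T cells, 5 were over 1 CPM on average in both groups. CPM are counts scaled to the size of each library times its TMM factor from edgeR. Overlap between groups was read on the same scale. PAX2 was below 1 CPM, with means of 0.679 CPM without and 0.871 CPM with the mutation. The summed level of the 6 genes was 492, 503 and 520.2 CPM in the wild-type libraries and 280.4, 279 and 286 CPM in the EAF1-mutant libraries. VIM, which encodes the filament protein vimentin, was the most abundant of them, at 380.5 ± 8.97 CPM (SD, n = 3) and 199 ± 4.00 CPM (SD, n = 3). The sum was lower in every EAF1-mutant library, but it was carried by VIM and NEFM, with log2 fold changes of -0.93 and -1.31. Of the others NEFL was lower at -0.15 and CD24 higher at 0.40 at an adjusted p under 0.05, and LHX1 (-0.17) and PAX2 (0.33) did not pass. The part of these markers in the differences described here was not tested. Of the 4 blood cell markers none reached 1 CPM in either group. Of the 4 fibroblast markers COL1A1 and COL3A1 passed 1 CPM in wild-type cells and COL1A1 did in the mutant, while DCN and LUM were near 0. The fibroblast sum was 4.81, 4.95 and 6.00 CPM in wild-type and 4.40, 5.00 and 4.72 CPM in EAF1-mutant libraries. Within it COL1A1 was higher, with a log2 fold change of 0.54, and COL3A1 (-2.18) and LUM (-3.53) were lower, all at an adjusted p under 0.05. Of the 4 colon epithelium markers CDX2 was at 18.7 and 16.5 CPM, lower without overlap by a log2 fold change of -0.19 (adjusted p = 0.0046 in edgeR's quasi-likelihood test), and LGALS4, CDH17 and CEACAM5 were near 0. In bulk RNA, a smaller share of cells of a kind and less RNA per cell cannot be told apart.

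EAF1 itself was read first, because it is the gene that was edited. Its RNA was at 57.5, 58.4 and 56.5 CPM in the wild-type libraries and at 19.7, 17.9 and 18.8 CPM in the EAF1-mutant libraries. All 3 mutant libraries lay far below the wild-type ones. The log2 fold change was -1.61 (SE 0.05, adjusted p = 2.48e-18 in edgeR's quasi-likelihood test). The 83 tested genes within 5 Mb of EAF1 on chromosome 3 had a median log2 fold change of -1.44. Counts per gene do not read the substituted residues, so this level is no check of the edit.

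In wild-type cells the subunit genes differed widely in RNA level. Levels of different genes were compared as CPM per kilobase of exon, the union of all annotated exons of the gene, and they ran from 2.02 to 19.7, a 9.73-fold range. CCNC, which encodes cyclin C, the partner of CDK8 and CDK19, was at 19.4, 20.3 and 19.3 CPM per kilobase in the 3 libraries. MED13, which joins the kinase module to the core, was at 14.9, 15.9 and 15.1 CPM per kilobase. MED4, a middle subunit, was at 13.4, 15.8 and 15.1 CPM per kilobase. CCNC was above both in every library. MED4 overlapped with MED13 and also with the tail subunit MED24 (14.3 ± 0.419 CPM per kilobase, SD, n = 3), so that its place in the order is uncertain.

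At the other end stood MED26, at 1.95, 1.99 and 2.12 CPM per kilobase of exon in the wild-type libraries. MED12L, the paralog of MED12, was at 2.91, 2.90 and 3.08 CPM per kilobase. MED12, the subunit that activates the kinase, was at 2.99, 2.99 and 3.03 CPM per kilobase. MED26 was below every other subunit in each library, whereas MED12, MED12L and CDK19 (3.03 ± 0.175 CPM per kilobase, SD, n = 3) overlapped. MED26 was also the lowest, at 3.40 ± 0.148 CPM per kilobase (SD, n = 3), when the longest protein-coding transcript was taken as the length. By that length CDK19 (3.62) and MED12L (3.94) came next. The mean of MED12 (6.03) was then above that of MED30 (5.84). On the same strand, 27.2% of its exon bases are shared with the protein-coding gene ENSG00000141979, 13.2% with another, ENSG00000268790, and 3.72% with a long non-coding RNA. Reads from shared bases may have been counted elsewhere, so the level of MED26 is uncertain.

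The median level of the head genes was 8.75 ± 0.281 CPM per kilobase of exon (SD over 3 libraries), that of the middle 5.20 ± 0.313, of the tail 6.11 ± 0.460 and of the kinase module 3.58 ± 0.0934. MED14 was at 9.20 ± 0.415 and the median of MED27 to MED30 at 7.57 ± 0.404 CPM per kilobase. The kinase module therefore had the lowest median by this length although it held the 2 highest means, those of CCNC and MED13. MED13 overlapped with MED4 of the middle module, so that its second place is uncertain. That place also depended on the length. Per kilobase of the longest protein-coding transcript MED24 was second, at 25.5 CPM, and MED13 was at 18.5 CPM. With the longest protein-coding transcript as length the medians were 12.2 for head, 7.44 for middle, 11.1 for tail and 8.84 for kinase genes, and the middle was lowest. The order of the modules thus depended on the length chosen. Within each module the levels ranged from 3.43 to 11.6 CPM per kilobase of exon in the head, 2.02 to 14.8 in the middle, 3.46 to 14.3 in the tail and 2.96 to 19.7 in the kinase module. Subunits of a module were thus not at equal RNA levels. Across the 33 genes the ranks by the 2 lengths had a Spearman rho of 0.8, which describes genes that are not independent replicates.

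**Figure D1:**
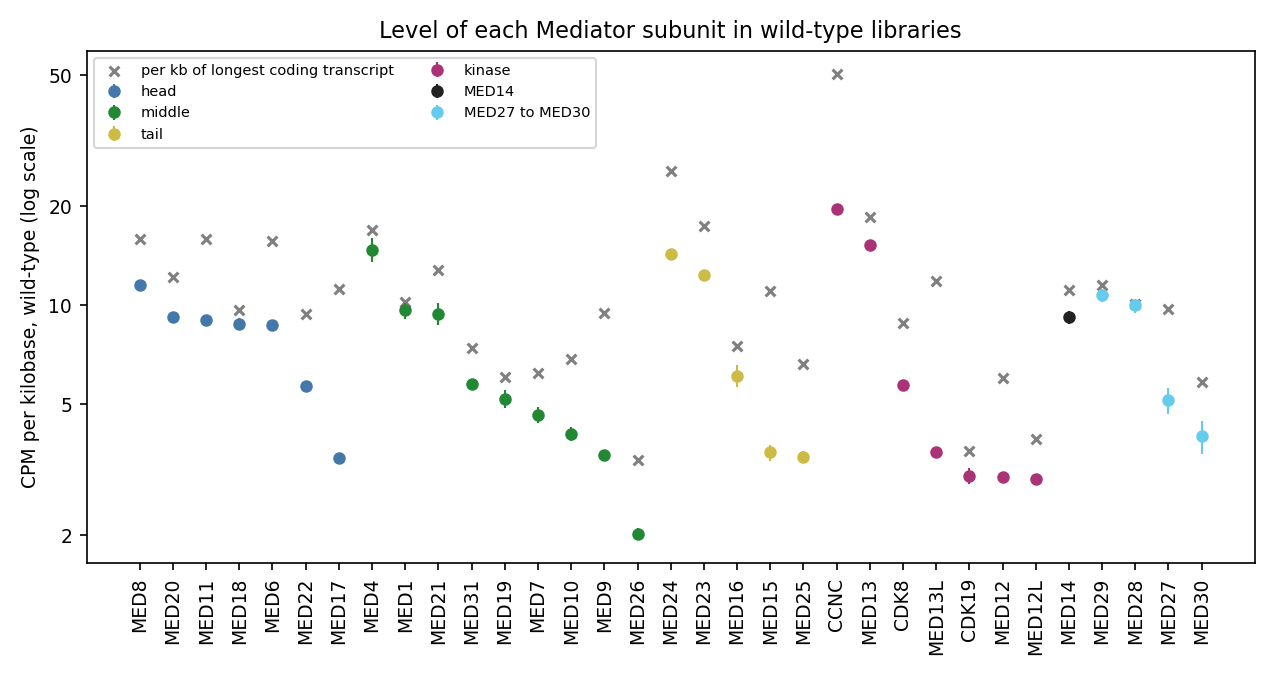
Mean level of each subunit gene in 3 wild-type libraries, in CPM per kilobase on a log axis, with colours for the modules; circles use the union of exons with the SD as bars, and grey crosses use the longest protein-coding transcript. CCNC is highest and MED26 lowest on both lengths, at 19.7 and 2.02 CPM per kilobase of exon.

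In EAF1-mutant cells most subunit genes stayed within a narrow range of their wild-type level. Calls were made first by a strict rule that asked for an adjusted p under 0.01 together with a log2 change of more than 0.5 either way. By it 1 of 33 was higher, MED8, where 11.0% of all tested genes were, and 1 of 33 was lower, MED12, where 9.36% were. With the adjusted p under 0.05 as the sole limit, 9 of 33 were higher against 25.9% of all tested genes, 6 were lower against 25.6%, and 18 did not pass. For 17 of 33 subunits the 3 libraries of one group did not overlap those of the other, and the same held for 57.3% of all tested genes. All 33 are protein-coding, and of the tested protein-coding genes 23.5% were called by the strict rule, 65.7% passed an adjusted p of 0.05 and 70.1% had no overlap. The median log2 fold change of the 33 was 0.02 and that of all tested genes 0.01. The median size of the change was 0.10 for the subunits, 0.28 for all tested genes and 0.26 for tested protein-coding genes. The summed level of the 33 genes was 1545, 1595 and 1567 CPM in wild-type and 1625, 1607 and 1628 CPM in EAF1-mutant libraries. Library totals alone as the scale moved the median of all tested genes to 0.13, and 19 subunits were then higher and 3 lower at an adjusted p under 0.05, against 36.5% and 18.0% of all tested genes, so small changes have to be read relative to that shift.

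**Figure D2:**
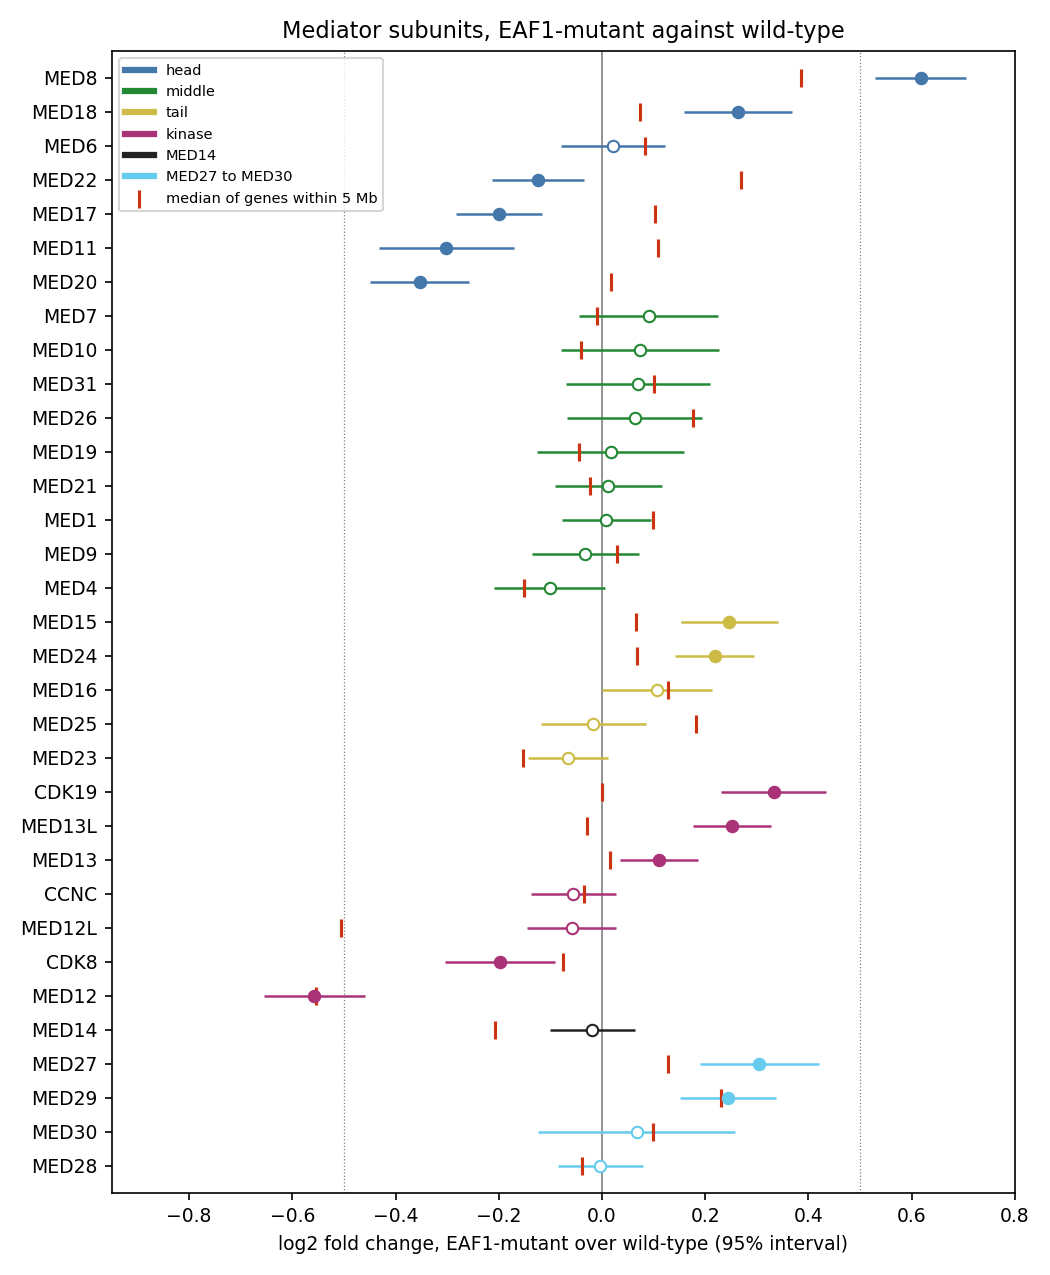
Log2 fold change of each subunit gene, EAF1-mutant over wild-type, with its 95% interval, grouped by module; filled circles had an adjusted p under 0.05, dotted lines stand at 0.5 and -0.5, and red ticks give the median of tested genes within 5 Mb. MED8 (0.62) and MED12 (-0.56) lie beyond the dotted lines, and the 9 middle subunits all have open circles with TMM scaling, whereas 6 of them were higher with library totals alone, as were 36.5% of all tested genes.

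The head module, which contacts the polymerase and the general transcription factors, changed in both directions. MED8 (ENSG00000159479, chromosome 1, 43383917 to 43389808 in GRCh38) was at 32.2, 30.6 and 31.0 CPM in wild-type libraries and at 46.6, 48.2 and 49.1 CPM in EAF1-mutant libraries. The 3 mutant libraries were all above the wild-type ones. Its log2 fold change was 0.62 (SE 0.04, 95% interval 0.53 to 0.71, adjusted p = 1.89e-11 in edgeR's quasi-likelihood test), and the 204 tested genes within 5 Mb had a median of 0.39. MED18, the head subunit that pairs with MED20, was also higher, with a log2 fold change of 0.26 (SE 0.05).

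The other head subunits that passed an adjusted p under 0.05 were lower. MED20 fell by 0.35 on the log2 scale (SE 0.05), MED11 by a log2 fold change of -0.30 (SE 0.06), MED17, the scaffold of the head, by -0.20 (SE 0.04), and MED22 by -0.12 (SE 0.04). MED20 and MED18 thus moved in opposite directions. The tested genes within 5 Mb had medians of 0.02 for MED20, 0.11 for MED11, 0.10 for MED17 and 0.27 for MED22. Within 2 Mb the medians were -0.00 for MED20, 0.07 for MED11, 0.12 for MED17 and 0.05 for MED22, so that the side of 0 depended on the window for MED20. With library totals alone MED17 and MED22 did not pass, at log2 fold changes of -0.08 and -0.01, and MED22 also did not pass without EAF1-mutant replicate 1. MED6 had a log2 fold change of 0.02 and did not pass, although it was 0.14 and passed with library totals alone. Of the 7 head genes 2 were higher and 4 lower at an adjusted p under 0.05, against 25.9% and 25.6% of all tested genes, and 6 had no overlap between the groups, against 57.3%. Library totals alone gave 3 higher and 2 lower, against 36.5% and 18.0%, so the balance depended on the scale. The head median was -0.12, and -0.01 with library totals alone. Of the exon bases of MED11 31.2% lie opposite a long non-coding RNA, and 13% of those of MED17 are shared on the same strand with ENSG00000284057, so that counts of both are uncertain.

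The middle module includes MED26 and MED1, and none of its 9 genes passed the adjusted p of 0.05 with TMM, where 51.5% of all tested genes did. In edgeR, DESeq2 and limma voom alike, 0 of the 9 had an unadjusted p under 0.05 in either direction. The share of all tested genes at that limit was not counted, so this count has no background to be read against. MED26 (ENSG00000105085, chromosome 19, 16574907 to 16629062 in GRCh38), the subunit whose contact with EAF1 was mutated, was at 10.4, 10.6 and 11.3 CPM in wild-type and at 10.7, 11.4 and 11.7 CPM in EAF1-mutant libraries. The groups overlapped. Its log2 fold change was 0.06 (SE 0.06, adjusted p = 0.425 in edgeR's quasi-likelihood test), with a 95% interval of -0.07 to 0.19. It was 0.18 and passed an adjusted p of 0.05 with library totals alone. It was 0.03 without wild-type replicate 1, 0.04 without EAF1-mutant replicate 3 and 0.10 without EAF1-mutant replicate 1, and passed in none of these.

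MED1, the subunit that binds nuclear receptors, was at 79.3, 88.3 and 81.7 CPM in wild-type and at 81.6, 85.0 and 84.2 CPM in EAF1-mutant libraries. The groups overlapped here too, and the interval of its log2 fold change ran from -0.08 to 0.10. That change was 0.12 and passed with library totals alone. MED4, the other middle gene named above, was at 34.7, 40.8 and 39.2 CPM in wild-type and at 34.6, 35.2 and 37.1 CPM in mutant libraries, with overlap and a log2 fold change of -0.10 that passed at -0.18 without wild-type replicate 1. The remaining middle genes, MED9, MED21, MED19, MED31, MED10 and MED7, had log2 fold changes between -0.03 and 0.09. For all 9 the 95% intervals with TMM lay between -0.21 and 0.23, so larger changes were outside them. Every middle gene had overlapping groups, whereas 57.3% of all tested genes had groups without overlap. Scaled by library totals alone, 6 of the 9 were higher at an adjusted p under 0.05, where 36.5% of all tested genes were. More of the exon bases of MED31 than of any other member, 58.4%, lie opposite a counted gene, TXNDC17.

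In the tail module, the main target of activators, 2 of 5 genes were higher and 0 lower at an adjusted p under 0.05, against 25.9% and 25.6% of all tested genes. DESeq2 and limma voom gave the same counts, and 0 were lower at an unadjusted p under 0.05 with any of these tools. Shares of all tested genes were not counted for DESeq2, limma voom or an unadjusted p. Library totals alone gave 3 higher and 0 lower, against 36.5% and 18.0%. MED15, a target of SREBP and SMAD factors, had a log2 fold change of 0.25 (SE 0.05) and MED24 one of 0.22 (SE 0.04). MED16 had 0.11 and MED25 had -0.02, and neither passed an adjusted p of 0.05, although MED16 did with library totals alone, with a minimum of 1 CPM in 3 libraries and without wild-type replicate 1. MED23, which binds ELK1 and the adenoviral E1A protein, was at 94.1, 92.2 and 89.0 CPM in wild-type and at 87.6, 87.6 and 87.8 CPM in EAF1-mutant libraries. All mutant values of MED23 were below the wild-type ones, by a little. Its log2 fold change of -0.07 (SE 0.04, adjusted p = 0.150 in edgeR's quasi-likelihood test) did not pass, although it passed as lower without wild-type replicate 3, at -0.10, and its sign turned with library totals alone, at 0.05. The tail median was 0.11, but 0.04 without wild-type replicate 2 and 0.22 with library totals alone.

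Of the 7 kinase module genes 3 were higher, 2 were lower and 2 did not pass at an adjusted p under 0.05, where 25.9% and 25.6% of all tested genes were higher and lower. Library totals alone gave 3 higher and 1 lower, against 36.5% and 18.0%. MED12 (ENSG00000184634, chromosome X, 71118543 to 71144103 in GRCh38) was at 51.8, 51.9 and 52.5 CPM in wild-type libraries and at 32.8, 37.9 and 35.4 CPM in EAF1-mutant libraries. The 3 mutant libraries were all below the wild-type ones. The log2 fold change was -0.56 (SE 0.05, 95% interval -0.65 to -0.46, adjusted p = 6.50e-10 in edgeR's quasi-likelihood test). With library totals alone it was -0.44, short of the limit of 0.5 in size. The 94 tested genes within 5 Mb of MED12 had a median log2 fold change of -0.55, with 76 of the 94 below 0.

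MED12L was at 41.8, 41.6 and 44.1 CPM in wild-type and at 39.9, 41.1 and 41.3 CPM in EAF1-mutant libraries. Its groups did not overlap, by a small margin, and its log2 fold change of -0.06 (SE 0.04) did not pass. The 56 tested genes within 5 Mb of MED12L on chromosome 3 had a median of -0.51, with 52 below 0. Within 2 Mb the median was -0.69 around MED12 and -0.51 around MED12L. The difference between a gene and its surroundings was not tested.

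The alternative kinases changed in opposite directions. CDK8 was at 28.0, 26.9 and 26.4 CPM in wild-type and at 25.4, 22.4 and 23.1 CPM in EAF1-mutant libraries. CDK19 was at 21.6, 23.9 and 24.0 CPM in wild-type and at 28.8, 29.9 and 28.8 CPM in EAF1-mutant libraries. Neither pair of groups overlapped. The log2 fold change was -0.20 for CDK8 (SE 0.05, adjusted p = 0.0024 in edgeR's quasi-likelihood test) and 0.33 for CDK19 (SE 0.05, adjusted p = 4.39e-06). With library totals alone that of CDK8 was -0.08 and did not pass.

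CCNC, their shared cyclin, was at 109, 114 and 108 CPM in wild-type and at 111, 102 and 106 CPM in EAF1-mutant libraries, which overlapped. Its log2 fold change was -0.06 (SE 0.04), which did not pass. It was -0.03 without EAF1-mutant replicate 2 and -0.09 without EAF1-mutant replicate 1. With library totals alone the signs of CCNC and MED12L turned, to log2 fold changes of 0.06 for both. MED13 was at 189, 202 and 191 CPM in wild-type and at 212, 206 and 210.3 CPM in mutant libraries, and its paralog MED13L at 114, 119.7 and 119 and at 140.5, 139.6 and 139.6 CPM. Mutant values of both were above all wild-type values. The log2 fold changes were 0.11 (SE 0.04) and 0.25 (SE 0.04). That of MED13 passed with an adjusted p of 0.014 in edgeR's quasi-likelihood test but did not without wild-type replicate 1, wild-type replicate 3 or EAF1-mutant replicate 3, at 0.08, 0.08 and 0.11.

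**Figure D3:**
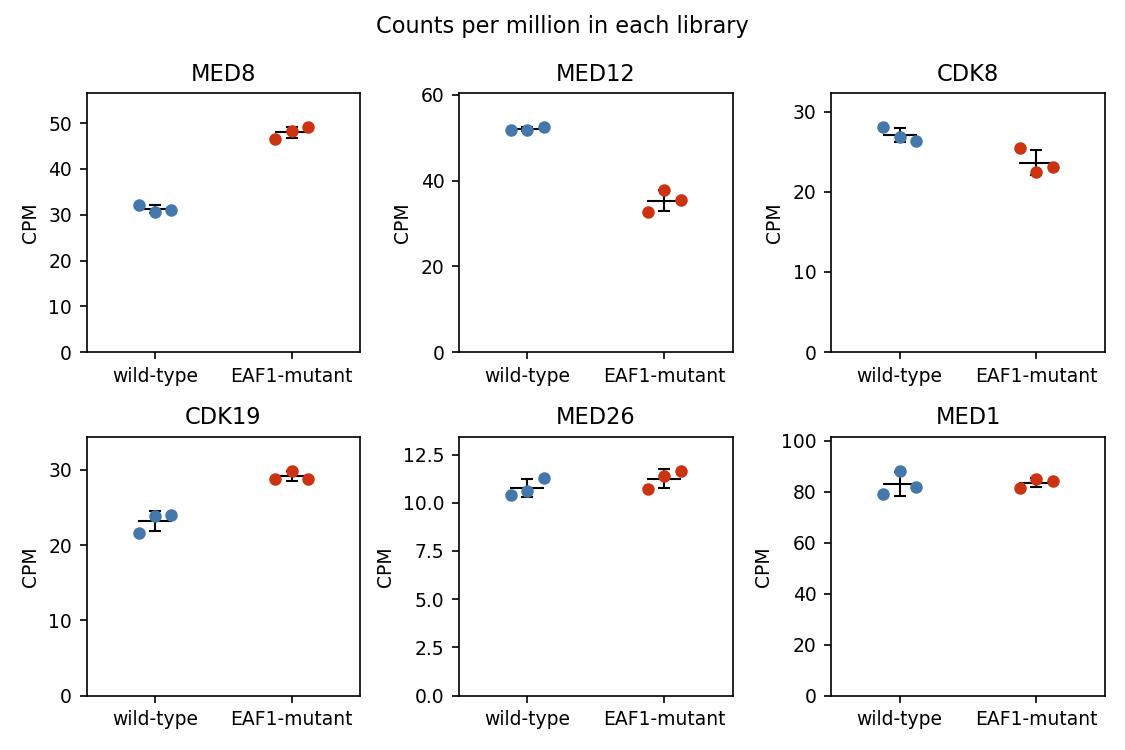
CPM of 6 subunit genes in each library, with wild-type in blue, EAF1-mutant in red, and a black mark for the mean with its SD (n = 3); each axis starts at 0. MED8 and CDK19 are higher and MED12 and CDK8 lower in the mutant without overlap, while MED26 and MED1 overlap; with library totals alone CDK8 did not pass an adjusted p of 0.05, and MED26 (0.18) and MED1 (0.12) did.

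Ratios between paralogs within a library do not depend on how libraries are scaled. The log2 ratio of CDK8 to CDK19, each per kilobase of exon, was 1.06, 0.86 and 0.83 in wild-type and 0.51, 0.28 and 0.37 in EAF1-mutant libraries. That of MED12 to MED12L was 0.04, 0.04 and -0.02 in wild-type and -0.56, -0.39 and -0.49 in EAF1-mutant libraries. That of MED13 to MED13L was 2.10, 2.13 and 2.06 in wild-type and 1.97, 1.94 and 1.97 in EAF1-mutant libraries. In all 3 pairs the mutant ratios were below every wild-type ratio.

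The difference in the log2 ratio, mutant minus wild-type, was -0.53 for CDK8 to CDK19, -0.50 for MED12 to MED12L and -0.14 for MED13 to MED13L. A two-sided exact permutation test of 3 against 3 libraries gave p = 0.1 for each, the smallest it can give, and 0.1 after adjustment over the 3 pairs, so the test could not pass 0.05. The size of a ratio, unlike its difference between groups, depended on the length. With the longest protein-coding transcript the wild-type log2 ratios were 1.29, 0.62 and 0.64. The share of the summed CPM of the 33 genes that fell on the kinase module was 35.9%, 36.3% and 36.1% in wild-type and 36.3%, 36.0% and 35.9% in mutant libraries, which overlapped.

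**Figure D4:**
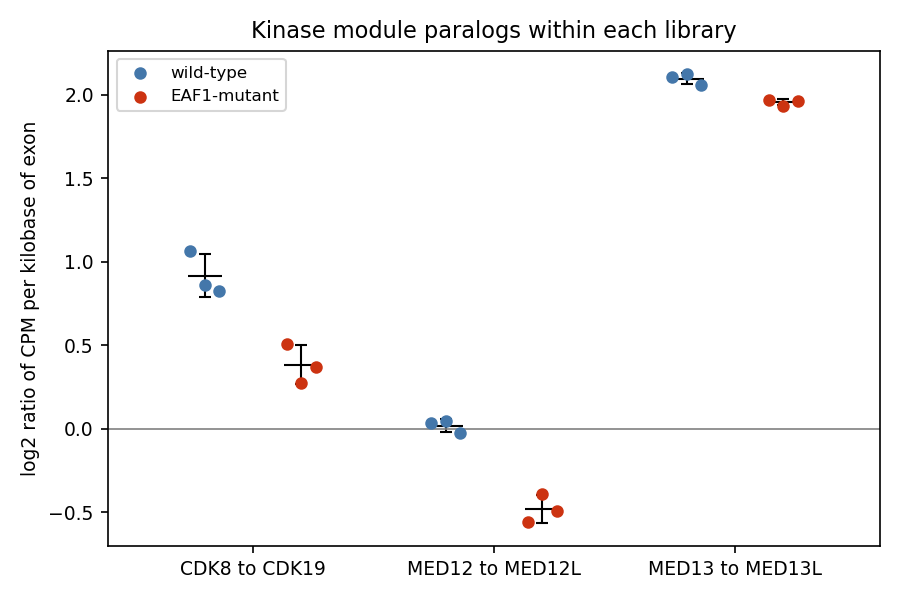
Log2 ratio of CPM per kilobase of exon between paralogs of the kinase module in each library, wild-type in blue and EAF1-mutant in red, with the mean and SD in black (n = 3). All 3 ratios are lower in the mutant libraries, by 0.53, 0.50 and 0.14 on the log2 scale for the pairs from left to right.

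MED14, the backbone, had a log2 fold change of -0.02 (95% interval -0.10 to 0.06), which did not pass with TMM but was 0.10 and passed with library totals alone, and 40 tested genes around it on chromosome X had a median of -0.21. Among the genes placed in the head or the tail, MED27 had 0.30 (SE 0.06) and MED29 had 0.24 (SE 0.04), both past an adjusted p of 0.05. MED28 had -0.00 and MED30 had 0.07, and neither passed, although MED28 was at 0.11 and passed with library totals alone. MED30 had the lowest CPM of all members, 5.75 ± 0.654 (SD, n = 3) in wild-type libraries, and the widest interval of the log2 fold change, 0.19 on either side. Counted with the head, these 4 genes turned the head median from -0.12 to 0.02. Of the exon bases of MED28 32.1% lie opposite FAM184B.

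The 33 genes lay on 15 chromosomes, and the genes around them were compared with them. Across the 33 members the log2 fold change of a member and the median of tested genes within 5 Mb had a Pearson r of 0.526 and a Spearman rho of 0.336, a description over genes that share the same 6 libraries. Without MED12 and MED12L, whose surroundings were farthest from the rest, Pearson r was 0.378 and Spearman rho 0.24. The member and its surroundings lay on the same side of 0 for 21 of 33, and for 9 of the 15 that passed an adjusted p of 0.05. Within 2 Mb these counts were 23 of 33 and 11 of 15. MED8 and MED12, the genes past the limit of 0.5, were thus also genes whose neighbours moved the same way, and the part of their surroundings in their changes was not tested.

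**Figure D5:**
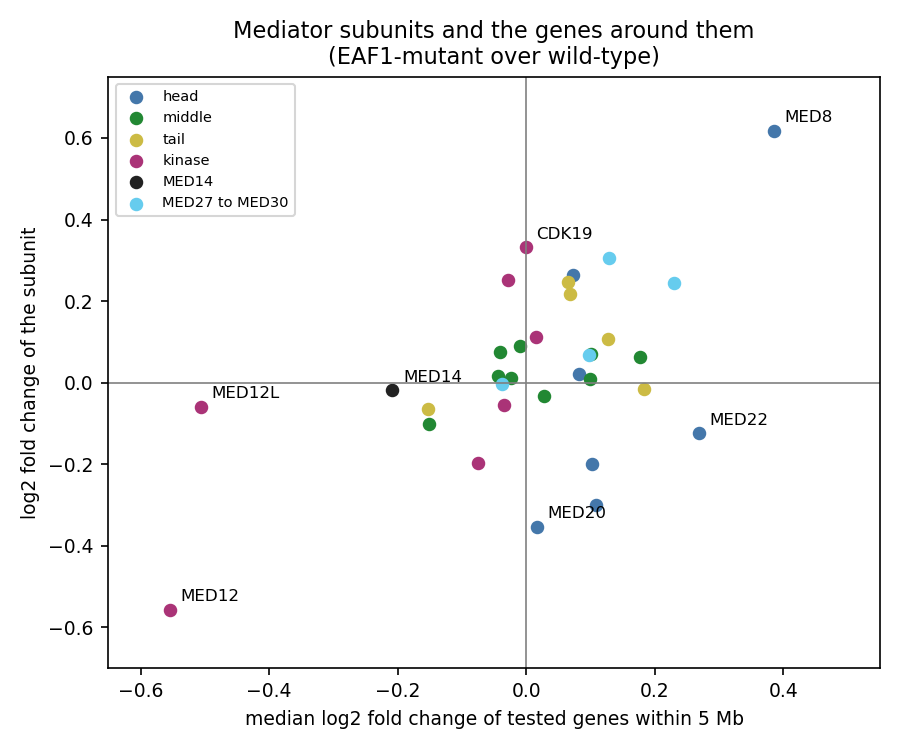
Log2 fold change of each subunit gene (vertical) against the median of tested genes within 5 Mb (horizontal), EAF1-mutant over wild-type, coloured by module (n = 33). MED8 stands at 0.62 with 0.39 around it, MED12 at -0.56 with -0.55, and MED12L at -0.06 with -0.51.

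Partner complexes of Mediator were read in the same fit. Of 31 general transcription factor genes, 0 were higher and 1 was lower by the strict rule, against 11.0% and 9.36% of all tested genes. At an adjusted p under 0.05, 8 were higher and 14 lower, against 25.9% and 25.6%. DESeq2 and limma voom also called 0 of them higher by the strict rule, and 10 were higher at an unadjusted p under 0.05 in edgeR. DESeq2 gave fewer higher genes, 5 at an adjusted and 6 at an unadjusted p under 0.05. Shares of all tested genes were not counted for these tools or for an unadjusted p. With library totals alone 2 were higher and 0 lower by the strict rule. The share of all tested genes was not counted for that rule on that scale. At an adjusted p under 0.05 that scale gave 15 higher and 10 lower, against 36.5% and 18.0% of all tested genes. These counts turned the balance. The median was -0.04. The gene called was TAF1, the largest subunit of TFIID, at 52.5, 61.7 and 59.3 CPM in wild-type and at 37.8, 37.9 and 39.1 CPM in EAF1-mutant libraries. TAF1 lies close to MED12 on chromosome X, at 71366222 to 71532374. Its log2 fold change was -0.59 (SE 0.05) with a median of -0.56 around it. Each of these genes is within 5 Mb of the other, so the medians around them share genes and are not separate observations.

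Of the 15 LEC and SEC subunits, which bind MED26 directly or through partners, 2 were higher and 1 lower by the strict rule, against 11.0% and 9.36% of all tested genes, and 8 were higher and 2 lower at an adjusted p under 0.05, against 25.9% and 25.6%. The counts at 0.05 were 11 and 1 with library totals alone, against 36.5% and 18.0%. Their median log2 fold change was 0.11. EAF2, the paralog of EAF1, was at 4.49, 4.33 and 3.55 CPM in wild-type and at 8.31, 8.45 and 7.49 CPM in EAF1-mutant libraries. ELL3, of the ELL family of elongation factors, was at 4.51, 4.81 and 4.82 CPM in wild-type and at 8.48, 7.61 and 8.04 CPM in mutant libraries. Both were higher in all 3 mutant libraries, by log2 fold changes of 0.97 (SE 0.09) and 0.77 (SE 0.08), and EAF1 was the gene called lower.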

How the data were processed

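Total RNA was depleted of ribosomal RNA and sequenced from stranded libraries. After trimming and HISAT2 mapping to GRCh38, the authors used Rsubread with the Ensembl annotation and deposited raw counts for each gene. How strand and multi-mapped reads were handled was not given in the sources used, so overlapping, antisense and near-identical genes cannot be told apart; 20 of the 33 members share exon bases with another counted gene. The submitters' processing notes name Trimmomatic 0.38 and DESeq2 1.28.1, whereas the study's RNA-seq methods name Trim Galore for trimming. Which of the trimmers was used for these libraries is uncertain.

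Counts were scaled with the TMM factors of edgeR 4.0.16 under R 4.3.3 (0.957 to 0.963 in wild-type, 1.04 in EAF1-mutant libraries) and filtered with filterByExpr. The edgeR quasi-likelihood test was then run, with p-values adjusted by Benjamini-Hochberg over 28025 genes. The biological coefficient of variation was 4.11%. Raw counts of members ran from 269 to 14519. The strict rule uses the thresholds of the study's methods, and the adjusted p under 0.05 with no fold limit was added here. Shares of all tested genes were counted for the edgeR fit with TMM. With library totals alone they were counted at an adjusted p under 0.05. They were not counted for DESeq2, limma voom or an unadjusted p. Positions and exon lengths came from GENCODE on GRCh38, which matched 98.9% of genes. Scripts were tested on simulated data.

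Alternatives were DESeq2 1.42.0, limma voom 3.58.1, library totals, RLE factors, other filters and thresholds, leaving out each library, a replicate block, other lengths, modules and windows. Values in every library are given for members past the strict rule, MED26, MED1, MED23, the 3 highest and 3 lowest levels, the paralog pairs, EAF1 and called genes of the context lists. Members and lists were chosen with earlier results of these data known. The ELL ChIP-seq table was not used here.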

Additional observations from a re-analysis of the deposited data

How the results depend on the processing

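MED8 stayed higher by the strict rule with every tool, scale, filter and left-out library, from 0.593 to 0.734. MED12 stayed lower by that rule except with library totals alone, where it was at -0.442, lower but short of the fold limit. The replicate block left 1 member higher, 1 lower, and 9 and 6 at an adjusted p under 0.05. The deviations of same-numbered libraries from their group means had correlations of -0.005, -0.017 and 0.01. These show no shared deviation, but they cannot tell whether same-numbered libraries were prepared together. Without a fold limit, 8 were higher and 5 lower at an adjusted p under 0.01. With a log2 fold change over 1, 0 were higher and 0 lower. Shares of all tested genes were not counted at these limits. Library totals alone gave 0 lower by the strict rule, for which the share of all tested genes was not counted on that scale. At 0.05 that scale gave 19 higher and 3 lower (36.5% and 18.0% of all tested genes). Its median log2 fold changes were 0.132 for all members, -0.00871 for head, 0.132 for middle, 0.223 for tail and 0.0598 for kinase. Those for MED14 and for MED27 to MED30 were 0.0966 and 0.272. Levels were 8.40 for head and 3.44 for kinase genes. The sign turned for MED4 (0.014), MED9 (0.0829), MED12L (0.0565), MED14 (0.0966), MED23 (0.0496), MED25 (0.0989), MED28 (0.112) and CCNC (0.0598). The filter of at least 1 CPM in 3 libraries gave medians of 0.0329 for members and -0.00262 for MED14, and MED28 0.0132. DESeq2 gave MED1 -0.00214 and MED14 -0.0296, and RLE factors MED14 -0.0238. The head median with MED27 to MED30 was 0.0213. The longest protein-coding transcript gave levels of 12.2 for head, 7.44 for middle, 11.1 for tail, 8.84 for kinase, 11.1 for MED14 and 9.91 for MED27 to MED30, and wild-type log2 ratios of 1.29, 0.616 and 0.641. Leaving out each library in turn gave medians from -0.0118 to 0.0424 for members, -0.158 to -0.106 for head, -0.0108 to 0.0439 for middle, 0.0446 to 0.151 for tail, -0.0785 to -0.0253 for kinase, -0.0666 to 0.000981 for MED14 and 0.121 to 0.168 for MED27 to MED30. Single log2 fold changes then ran from -0.0376 to 0.0439 for MED1, -0.0346 to 0.062 for MED6, 0.0216 to 0.129 for MED7, 0.022 to 0.108 for MED10, -0.0666 to 0.000981 for MED14, -0.032 to 0.0552 for MED19, -0.0536 to 0.062 for MED21, -0.0561 to 0.00604 for MED25, 0.0257 to 0.0969 for MED26, -0.0492 to 0.024 for MED28, -0.0375 to 0.127 for MED30 and -0.00425 to 0.136 for MED31. Those of MED4 ran from -0.18 to -0.0622 and of MED9 from -0.0698 to -0.0041. Those of MED16 ran from 0.0446 to 0.151 and of CCNC from -0.0865 to -0.0253. The cause of these shifts was not tested. The interval was widest for MED30, 0.191 on either side; whether depth or replicate spread sets it was not tested.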
